A study of Mus musculus with 8 samples.

Results

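Amino acid transporter genes were compared by RNA-seq in cultured mouse neural stem/precursor cells with and without Nfia transduction. The genes were taken by name, as every symbol of the Slc1, Slc3, Slc6, Slc7, Slc36, Slc38 and Slc43 families that ends in a number, which gave 59 of the 23997 symbols in the files. The name covers some carriers of other substrates, among them the monoamine transporters Slc6a2, Slc6a3 and Slc6a4 and the creatine transporter Slc6a8. The cells came from the telencephalon of ICR embryos at E11.5, although the stage label gives embryonic day 11, and were grown with 10 ng/mL basic fibroblast growth factor. The 3 control libraries and the 3 libraries of cells transduced with Nfia, a gene of the nuclear factor I family of transcription factors, were taken 3 days after transduction, from the same culture type and strain. The labels name neither the vector and promoter that carried Nfia, nor what the control cells received, nor the share of cells transduced. Nor is it stated that replicate libraries stem from separate cultures. The spread behind each p-value is thus only that among these libraries and may be technical.

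Values are FPKM, fragments per kilobase of gene model scaled to the fragments mapped, so levels of different genes can be set side by side. Log2 differences are Nfia minus control after adding 1 FPKM to every value, and so understate the change of low genes. A gene was tested if its mean over the 6 libraries was at least 1 FPKM, and it was called higher or lower at an adjusted p under 0.05, from limma and adjusted over 12537 genes by the Benjamini-Hochberg method. The transcript of Nfia read 19.8 to 23.9 FPKM in the controls and 69.0 to 103.5 FPKM in the Nfia libraries. The libraries held 474010 to 511700 FPKM in total. Their depth relative to control 1, read from the spacing of the lowest values, ran from 0.758 in Nfia 3 to 1.11 in Nfia 1. The files hold no counts, so no counting interval is given. All 8 stem cell and radial glia markers and all 10 neuron markers listed were above the filter, so the cultures held both kinds of transcript. The 8 microglia markers were all below the filter, with a sum of 2.04 to 3.39 FPKM, as were the 6 erythroid markers. Mural and meningeal fibroblast markers (8 of 9), endothelial markers (1 of 6) and choroid plexus markers (2 of 5) were in part above it. Each of these lists had 1 marker lower with Nfia and 0 higher. Of those tested, the lower share was 12.5%, 100% (1 gene tested) and 50% (2 genes tested), against 15.1% of all genes. The lower markers were Rgs5 (log2 difference -0.75), Cldn5 (-0.61) and Ttr (-0.91), in the order of the lists. With means of 2.50 FPKM in the controls and 0.861 FPKM with Nfia, Ttr was tested only because of its control libraries. Its call thus adds no support. Cldn5 was near the filter with Nfia, at a mean of 1.02 FPKM. Dropping Nfia 2 or Nfia 3 removed the Rgs5 call. In such bulk RNA, fewer cells of a type and less RNA per cell cannot be told apart.

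Cells take up amino acids through families of membrane carriers with overlapping substrates. SLC1 proteins use ion gradients to import glutamate and aspartate, or exchange small neutral amino acids. The SLC7 proteins called light chains mostly reach the cell surface only when joined to a heavy chain of the SLC3 family, and exchange 1 amino acid for another. SLC6 proteins drive the uptake of GABA, glycine, taurine and neutral amino acids with sodium and, in most cases, chloride. SLC36, SLC38 and SLC43 proteins carry small and branched neutral amino acids at the plasma membrane or in lysosomes. In the brain, radial glia and astrocytes take up glutamate, whereas the transcription factor ATF4 raises many carrier genes when amino acids run short.

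Of the 59 genes, 31 passed the filter on low values and 28 did not. Of the 31, 10 were higher with Nfia, 4 were lower and 17 did not pass the test. The 10 higher genes are 32.3% of those tested, against 16.1% of all genes called higher, and the 4 lower genes are 12.9%, against 15.1%. The median log2 difference was 0.06 over the 31 and 0.01 over all genes tested. In 19 of the 31 the 3 Nfia libraries did not overlap the 3 control libraries (61.3%, against 47.7% of all genes tested). Increases were found in SLC1 (3 of 5 tested), SLC3 (1 of 1), SLC7 (4 of 7), SLC38 (1 of 7) and SLC43 (1 of 2). Slc7a2 passed the filter only through the Nfia group, where it is high, and without it 9 of 30 genes were higher (30%) and 3 of 6 in SLC7. Decreases were found in SLC6 (2 of 7), SLC7 (1 of 7) and SLC36 (1 of 2). With a mean of at least 5 FPKM as the filter, 20 members were tested and 7 were higher and 3 lower. That filter leaves 9727 genes, whose shares called are not given here, so these counts were not compared with a background.

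**Figure D1:**
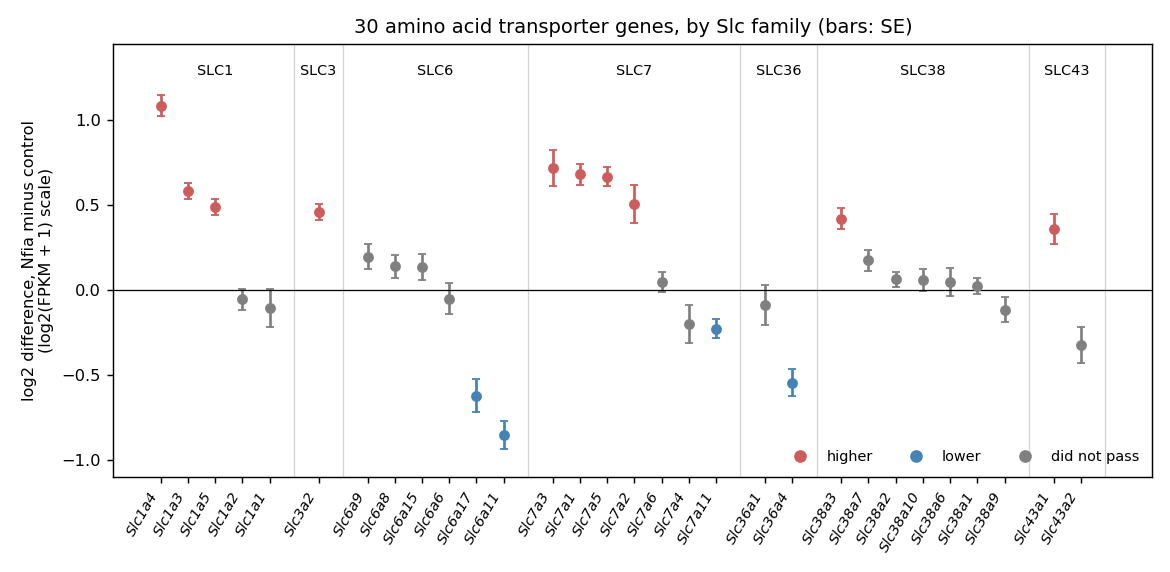
Log2 differences (Nfia minus control, log2(FPKM + 1) scale, bars are the SE) of 30 of the 31 genes tested, grouped by Slc family and ordered by size, coloured by call. Slc1a4 stands at the top with 1.09 and Slc6a11 at the bottom with -0.85, and most SLC38 genes lie near 0.

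Summed over the 59 genes, the level was 631.9 to 653.1 FPKM in the control libraries and 735.2 to 782.1 FPKM in the Nfia libraries. The groups did not overlap (two-sided exact permutation test, p = 0.1, the smallest that 3 against 3 libraries can give). Of the 7 family sums, that of SLC1 had the largest ratio, 1.59, with 103.9 ± 3.73 FPKM in the controls and 165.7 ± 5.56 FPKM with Nfia (SD, n = 3 per group, exact permutation p = 0.1). The SLC36 sum was 18.3 ± 1.90 FPKM in the controls and 13.3 ± 0.903 FPKM with Nfia, again without overlap. The SLC6 sums, 138.5 ± 3.34 and 127.3 ± 6.73 FPKM, did overlap, as did those of SLC43.

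In control cells the most abundant member was Slc38a2, a sodium-coupled carrier of small neutral amino acids, at 112.6 ± 2.07 FPKM. Among the others reported, the highest were the glial glutamate transporter gene Slc1a3 (56.5 ± 2.75), Slc38a1 (50.2 ± 1.04), the heavy chain gene Slc3a2 (47.4 ± 2.04), the light chain gene Slc7a5 (41.2 ± 2.78) and the taurine transporter gene Slc6a6 (41.0 ± 3.50 FPKM). Slc38a1 and Slc3a2 differed by less than the sum of their SDs, as did Slc7a5 and Slc6a6. In Nfia cells Slc38a2 remained first at 117.8 ± 4.65 FPKM, with Slc1a3 (85.3 ± 1.75), Slc7a5 (66.0 ± 2.03), Slc3a2 (65.5 ± 1.63) and Slc1a4 (54.0 ± 3.74 FPKM) next. Slc7a5 and Slc3a2 differed there by less than their SDs.

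**Figure D2:**
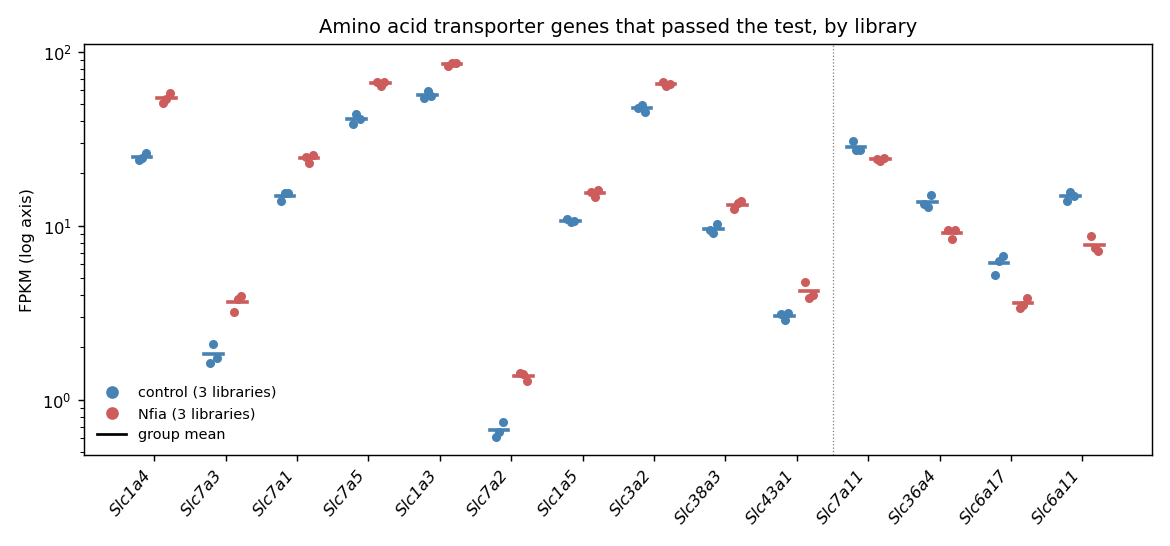
FPKM (log axis) of the 14 genes that passed the test, with 1 point per library and a bar at each group mean. The 10 higher genes stand left of the dotted line and the 4 lower genes right of it, and in none of the 14 do the control and Nfia points overlap.

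Promoter sequence was looked at for the genes with the largest increase and decrease and for the SLC7 gene that fell, to show which of them hold the element through which ATF4 and C/EBP factors act. Windows from 250 bases before to 50 bases after a start were taken from RefSeq (GRCm38.p6), which matched 41 of the 59 members and 9 of the 14 genes that passed the test. The composite element was searched as TGATGNAA and the full NFI site as TTGGC and GCCAA with 5 bases of any kind between them, on both strands. Of all 32851 windows, 3.97% held the first and 0.0365% the second. Of the 41 members, with 62 windows, 3 held the composite element (Slc1a4, Slc7a11 and Slc7a7), and no member's window held the full NFI site. That site is so rare over all windows that its absence from 62 says little, and partial NFI sites were not searched. The member count is per gene and the 3.97% per window, so they were not compared. Below are the 250 bases before 1 annotated start of each gene, with matches in capitals, and the 30 bases around the Slc1a4 match, which crosses the start.
Slc1a4, chr11:20332714-20332963, minus strand: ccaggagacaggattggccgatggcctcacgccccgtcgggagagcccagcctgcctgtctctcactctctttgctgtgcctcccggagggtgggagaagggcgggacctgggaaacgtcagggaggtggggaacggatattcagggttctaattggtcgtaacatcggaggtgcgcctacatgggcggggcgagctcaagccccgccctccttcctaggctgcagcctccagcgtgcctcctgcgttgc
Slc1a4 match, chr11:20332699-20332728, minus strand: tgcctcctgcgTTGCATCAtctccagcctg
Slc6a11, chr6:114130991-114131240, plus strand: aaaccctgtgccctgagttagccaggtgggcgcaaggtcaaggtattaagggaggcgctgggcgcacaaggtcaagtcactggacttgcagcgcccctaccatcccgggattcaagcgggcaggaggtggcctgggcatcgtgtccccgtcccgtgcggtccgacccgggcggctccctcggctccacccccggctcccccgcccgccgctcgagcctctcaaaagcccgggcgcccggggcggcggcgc
Slc7a11, chr3:50443614-50443863, minus strand: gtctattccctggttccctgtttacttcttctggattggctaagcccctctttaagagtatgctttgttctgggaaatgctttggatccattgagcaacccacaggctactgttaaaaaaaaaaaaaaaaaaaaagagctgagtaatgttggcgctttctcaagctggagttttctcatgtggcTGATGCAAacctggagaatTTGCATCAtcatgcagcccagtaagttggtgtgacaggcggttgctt
Slc7a11 has 2 matches, on opposite strands, whose first bases are 66 and 47 bases before the start, and Slc1a4 has 1, which begins 4 bases before the start. The element was thus present in 2 of the 9 passing genes with a window. They are Slc1a4, with the largest increase, and Slc7a11, 1 of the 4 that fell. A match is only a run of letters and was not tested for binding.

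Among the exchangers of neutral amino acids, Slc1a4 showed the largest log2 difference of the 31 genes tested. Slc1a4 encodes a carrier of alanine, serine, cysteine and threonine that supplies serine in the brain. It read 23.9, 24.6 and 26.1 FPKM in control 1, 2 and 3 and 50.5, 53.5 and 57.9 FPKM in Nfia 1, 2 and 3. Every Nfia library was far above every control library, by 2.17-fold on the means (log2 difference 1.09, SE 0.06, adjusted p = 0.000179). Slc1a4 occupies chromosome 11, positions 20302180 to 20332713 (GRCm38). Its relative Slc1a5, a carrier of glutamine and other neutral amino acids, was 10.9, 10.5 and 10.7 FPKM in the controls and 15.7, 14.6 and 16.0 FPKM with Nfia. That is a 1.44-fold increase with no overlap (log2 difference 0.49, SE 0.05, adjusted p = 0.000962). Within each library Slc1a4 stood 2.20 to 2.44 times as high as Slc1a5 in control and 3.22 to 3.66 times as high with Nfia (exact permutation p = 0.1).

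The glutamate transporter genes of SLC1 did not move as a group. Slc1a3, the glutamate and aspartate transporter of radial glia and astrocytes, was 54.1, 59.5 and 55.8 FPKM in the controls and 83.3, 86.7 and 85.8 FPKM with Nfia. It rose 1.51-fold, with libraries of each group close together and the groups far apart (log2 difference 0.59, SE 0.05, adjusted p = 0.000488). Slc1a2, the main glutamate transporter of mature astrocytes, was 8.26, 9.44 and 8.88 FPKM in the controls and 8.21, 8.39 and 8.89 FPKM with Nfia. These ranges overlapped, and the log2 difference of -0.05 did not pass (95% interval -0.20 to 0.10). Slc1a1, the neuronal glutamate and cysteine carrier, was 2.21 ± 0.412 FPKM in the controls and 1.97 ± 0.0177 FPKM with Nfia and did not pass either (adjusted p = 0.523). The ratio of Slc1a3 to Slc1a2 was 6.28 to 6.56 in the control libraries and 9.65 to 10.3 in the Nfia libraries (exact permutation p = 0.1). Slc1a6 and Slc1a7 were below the filter. Among the astrocyte markers listed, 3 of 6 tested were higher and 2 lower (50% and 33.3%, against 16.1% and 15.1% of all genes). Aldoc (log2 difference 0.63), Sparcl1 (1.23) and Mfge8 (1.78) were higher, Gfap (-0.51) and Aldh1l1 (-0.50) lower, and Gja1 did not pass. Leaving out any 1 control library ended the Gfap call (adjusted p = 0.0506 to 0.0856). The sum of the list was 257.3 to 287.1 FPKM in the controls and 458.3 to 480.9 FPKM with Nfia. None of its markers was at 0 in all libraries, and Aqp4 and S100b were below the filter. Of 5 oligodendrocyte precursor markers, 2 were higher and 1 lower (40% and 20%, against 16.1% and 15.1% of all genes). Their sum was 353.1 to 398.8 FPKM in the controls and 1047 to 1109 FPKM with Nfia. Its rise lay in Olig1 (means 226.7 and 689.6 FPKM) and Olig2 (136.2 and 373.0 FPKM), the 2 higher genes. Pdgfra was lower (log2 difference -0.64), and Cspg4 (0.21) and Sox10 (-0.41) did not pass. Of the 8 stem cell and radial glia markers, Nes, Vim and Hes1 were higher and Pax6 and Hes5 lower, with a sum of 5409 to 5887 FPKM in the controls and 5339 to 6421 FPKM with Nfia. The part of these 3 lists in the Slc1a3 result was not tested.

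The heavy chain and its main light chain were both higher. Slc3a2 encodes the heavy chain that carries several SLC7 light chains to the cell surface. It was 47.8, 49.2 and 45.2 FPKM in the controls and 67.2, 64.0 and 65.4 FPKM with Nfia, 1.38-fold higher with no overlap (log2 difference 0.46, SE 0.05, adjusted p = 0.000962). Slc7a5, which forms the large neutral amino acid transporter with Slc3a2 and imports leucine and other essential amino acids, was 38.5, 44.0 and 41.1 FPKM in the controls and 66.8, 63.7 and 67.5 FPKM with Nfia. It rose 1.60-fold, again with the groups well separated (log2 difference 0.67, SE 0.06, adjusted p = 0.000564). Slc7a5 lies on chromosome 8 from 121881146 to 121907686 and Slc3a2 on chromosome 19 from 8706882 to 8723369 in GRCm38. The other heavy chain gene, Slc3a1, was below the filter, at no more than 0.205 FPKM in any control library and no more than 0.471 FPKM in any Nfia library.

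Other light chain genes did not follow Slc7a5. Slc7a6, which exchanges cationic for neutral amino acids, was 22.0 ± 1.15 FPKM in the controls and 22.8 ± 1.19 FPKM with Nfia (log2 difference 0.05, 95% interval -0.09 to 0.19, adjusted p = 0.546). Slc7a11, the light chain of the cystine and glutamate exchanger that feeds glutathione synthesis, was 30.7, 27.3 and 27.3 FPKM in the controls and 24.3, 23.5 and 24.5 FPKM with Nfia. Its Nfia libraries all lay below the control libraries, but the step was small, 1.18-fold (log2 difference -0.23, SE 0.06, adjusted p = 0.0235). Slc7a11 was lower and Slc1a4 higher, and both hold the composite element. The Slc7a11 call ended when Nfia 1, Nfia 2 or Nfia 3 was left out (adjusted p = 0.0602, 0.0839 and 0.0537). The 6 other light chain genes, Slc7a7, Slc7a8, Slc7a9, Slc7a10, Slc7a12 and Slc7a13, were below the filter.

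The makeup of the light chain transcripts differed between the groups. Summed over the 9 light chain genes, the level was 93.2 to 94.3 FPKM in the controls and 110.5 to 117.2 FPKM with Nfia. Slc7a5 made up 41.3% to 46.7% of that sum in control and 57.0% to 57.9% with Nfia, and Slc7a11 29.0% to 33.0% and 20.8% to 21.3%. The share of Slc7a6 was also lower, 22.3% to 24.8% and 19.5% to 20.5%, although its level did not pass the test, since a larger Slc7a5 level lowers the shares of the others. Slc7a5 thus stood 1.25, 1.61 and 1.51 times as high as Slc7a11 in control 1, 2 and 3 and 2.75, 2.71 and 2.75 times as high in Nfia 1, 2 and 3. The ratio of all light chains to Slc3a2 was 1.92 to 2.07 in control and 1.73 to 1.78 with Nfia. The groups overlapped in none of these measures (exact permutation p = 0.1 for each).

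**Figure D3:**
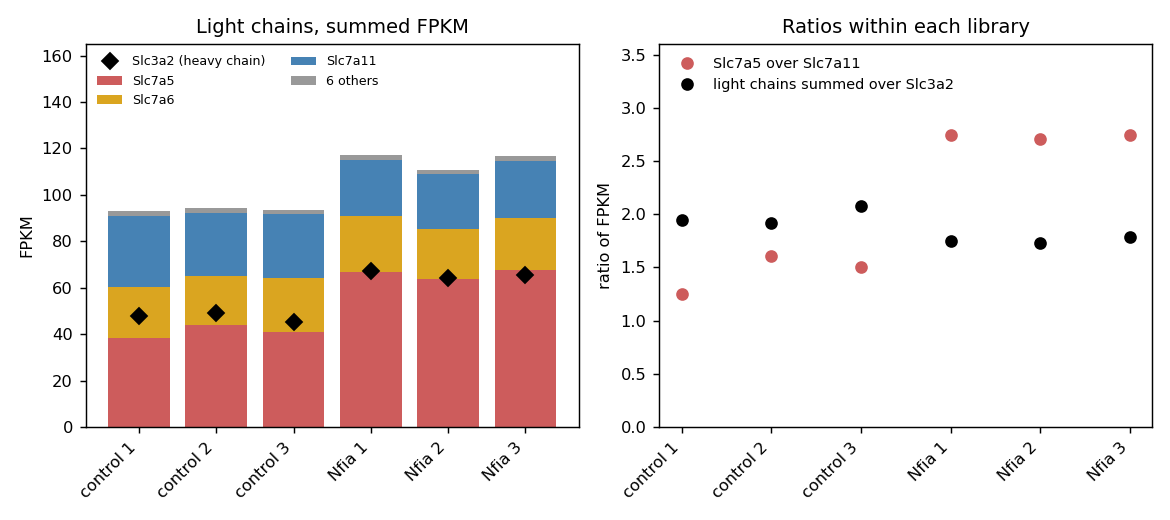
Left, FPKM of the SLC7 light chain genes stacked for each library, with the heavy chain gene Slc3a2 as diamonds. Right, ratios of FPKM within each library, where Slc7a5 over Slc7a11 is 1.25 to 1.61 in the control libraries and 2.71 to 2.75 in the Nfia libraries.

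The cationic amino acid transporter genes of SLC7, whose proteins import arginine and lysine without a heavy chain, include Slc7a1, Slc7a2 and Slc7a3, and Slc7a1 and Slc7a3 were higher with Nfia. Slc7a1, the widely expressed member, was 13.9, 15.5 and 15.4 FPKM in the controls and 25.0, 23.1 and 25.5 FPKM with Nfia. It was 1.64-fold higher, with the lowest Nfia library well above the highest control library (log2 difference 0.68, SE 0.06, adjusted p = 0.000626). Slc7a3 was 1.64, 2.11 and 1.74 FPKM in the controls and 3.19, 3.80 and 3.97 FPKM with Nfia (log2 difference 0.72, SE 0.11, adjusted p = 0.0038). The span of Slc7a3 meets that of Snx12 in the RefSeq table, and whether the counting used strand is not given in the sources used here. Slc7a2 was low, at 0.615, 0.652 and 0.750 FPKM in the controls and 1.43, 1.41 and 1.29 FPKM with Nfia (log2 difference 0.51, adjusted p = 0.0147). With a mean just above the filter, it was tested only because of its Nfia libraries, so its call adds no support. Summed, the 3 genes were 16.1 to 18.2 FPKM in the controls and 28.3 to 30.7 FPKM with Nfia, most of it Slc7a1. The sum includes Slc7a2 and is given as a level only. Slc7a4, a relative of these genes, was 1.87 ± 0.0806 FPKM in the controls and 1.51 ± 0.290 FPKM with Nfia and did not pass (adjusted p = 0.226). Leaving out Nfia 3 brought its adjusted p to 0.0457.

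In SLC6, the transporters of GABA and related substrates, 2 of the 7 genes tested were lower and the other 5 did not pass. Slc6a11, a GABA transporter known from astrocytes, was 13.8, 15.6 and 14.9 FPKM in the controls and 8.70, 7.46 and 7.12 FPKM with Nfia. Each Nfia library held far less than each control library, 1.90-fold on the means (log2 difference -0.85, SE 0.08, adjusted p = 0.000749). Slc6a11 spans positions 114131241 to 114249886 of chromosome 6 (GRCm38). Slc6a17, a carrier of neutral amino acids in the synaptic vesicles of neurons, was 5.19, 6.31 and 6.75 FPKM in the controls and 3.39, 3.51 and 3.87 FPKM with Nfia. It was 1.69-fold lower with no overlap (log2 difference -0.62, SE 0.10, adjusted p = 0.00487).

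Of the 10 neuron markers listed, 9 were lower (90%, against 15.1% of all genes). Their sum was 1702 to 1783 FPKM in the controls and 1074 to 1095 FPKM with Nfia. Of the 9 GABA neuron markers 7 were lower (77.8%), with a sum of 383.3 to 429.0 FPKM in the controls and 222.0 to 267.4 FPKM with Nfia. No marker of either list was at 0 in all libraries. The part of these markers in the results for Slc6a11 and Slc6a17 was not tested.

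Other SLC6 genes did not pass the test. The taurine transporter gene Slc6a6 was 41.0 ± 3.50 FPKM in the controls and 39.6 ± 4.17 FPKM with Nfia (95% interval of the log2 difference -0.27 to 0.17). The creatine transporter gene Slc6a8 was 19.0 ± 0.952 and 21.1 ± 1.70 FPKM (adjusted p = 0.152). Slc6a9, a glycine transporter of glia, was 4.37 ± 0.0897 FPKM in the controls and 5.17 ± 0.459 FPKM with Nfia, and the difference did not pass although the groups did not overlap (log2 difference 0.20, adjusted p = 0.0805). Its span meets that of Ccdc24. Slc6a15, a neuronal carrier of branched-chain amino acids and proline, was 6.83 ± 0.562 and 7.61 ± 0.541 FPKM (adjusted p = 0.21).

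Within SLC38, the sodium-coupled neutral carriers, the abundant members differed little between the groups. Slc38a2, which cells raise when amino acids are scarce, was 111.5, 111.3 and 115.0 FPKM in the controls and 118.6, 112.8 and 122.0 FPKM with Nfia (log2 difference 0.06, 95% interval -0.04 to 0.17, adjusted p = 0.32). Slc38a1, a glutamine carrier known from neurons, had a difference of 0.03 (95% interval -0.09 to 0.14). Both intervals lie well below the log2 difference of Slc1a4. Slc38a3, the glutamine carrier that astrocytes use for release, was the exception, at 9.49, 9.11 and 10.3 FPKM in the controls and 12.4, 13.5 and 13.9 FPKM with Nfia. It rose 1.38-fold with no overlap (log2 difference 0.42, SE 0.06, adjusted p = 0.00398). The lysosomal carrier genes Slc38a7 (11.7 ± 0.208 and 13.3 ± 1.01 FPKM, adjusted p = 0.0682) and Slc38a9, an arginine sensor for the growth kinase complex mTORC1 (2.92 ± 0.135 and 2.62 ± 0.0678 FPKM, adjusted p = 0.283), did not pass. Leaving out Nfia 2 brought the adjusted p of Slc38a7 to 0.0364. Slc38a6 and Slc38a10 had log2 differences of 0.05 and 0.06, and the span of Slc38a6 meets that of Trmt5.

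The proton-coupled and the facilitative carriers of neutral amino acids were few and went both ways. Slc36a4, a high-affinity carrier of proline and tryptophan, was 13.3, 12.8 and 15.1 FPKM in the controls and 9.46, 8.40 and 9.45 FPKM with Nfia. It was 1.51-fold lower, and the highest Nfia library stayed below the lowest control library (log2 difference -0.54, SE 0.08, adjusted p = 0.0033). Slc36a1, the lysosomal and surface carrier of the same family, was 4.50 ± 0.758 and 4.16 ± 0.447 FPKM (adjusted p = 0.625). Slc43a1, which carries branched-chain amino acids down their gradient, was 3.10, 2.87 and 3.17 FPKM in the controls and 4.78, 3.86 and 4.01 FPKM with Nfia (log2 difference 0.36, SE 0.09, adjusted p = 0.022). Its groups did not overlap, but leaving out control 1, 2 or 3 ended the call (adjusted p = 0.0558, 0.065 and 0.0533). Slc43a2, a carrier of the same substrates, was 2.61 ± 0.240 FPKM in the controls and 1.89 ± 0.276 FPKM with Nfia and did not pass (log2 difference -0.32, adjusted p = 0.0585). Leaving out Nfia 3, or fitting no variance trend, brought its adjusted p to 0.0302 and 0.0348.

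The 28 members below the filter had means of at most 0.900 FPKM, and 5 of them (Slc6a5, Slc6a18, Slc7a9, Slc7a15 and Slc36a3) were listed at 0 in all 6 libraries. The monoamine transporter genes Slc6a2, Slc6a3 and Slc6a4 were among the 28, with a sum of 0.0460 to 0.252 FPKM over the libraries. Others were Slc6a12 and Slc6a13, GABA and betaine transporters, and the proline transporter gene of neurons, Slc6a7.

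Genes around the transporters were counted from lists of amino acid metabolism and sensing. Of 21 genes of the ATF4 amino acid response, 14 were higher and 2 lower (66.7% and 9.52%, against 16.1% and 15.1% of all genes), with a median log2 difference of 0.39. Psat1, an enzyme of serine synthesis, was 197.9, 186.3 and 176.5 FPKM in the controls and 300.5, 305.3 and 299.9 FPKM with Nfia (log2 difference 0.69, adjusted p = 0.000453). Pck2 (0.61), the mitochondrial enzyme that makes phosphoenolpyruvate, Shmt2 (0.56), which splits serine into glycine and a folate-bound carbon, and Aldh1l2 (0.46) were also among the higher genes with the smallest adjusted p. Atf4 itself had a log2 difference of 0.23 (adjusted p = 0.0333), a call that ended without any 1 library other than control 2 (adjusted p = 0.0515 to 0.0963). The 2 lower genes were Ddit3 and Ddit4 (-0.19 and -0.20), and leaving out control 3 or 1 Nfia library ended both calls (adjusted p = 0.0505 to 0.0756).

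Enzymes that use what the carriers bring in went different ways. Of 12 genes of glutathione synthesis and use, 4 were higher (33.3%, against 16.1%) and the other 8 did not pass. The 4 were Cbs (log2 difference 0.56), which starts cysteine synthesis from homocysteine, the glutathione reductase gene Gsr (0.41), Chac1 (0.52), which degrades glutathione, and Gclm (0.29), a subunit of the first enzyme of its synthesis. Chac1 is also in the ATF4 list. Slc7a11 was lower in the same libraries. Of 15 tested enzymes of glutamate, glutamine, GABA and glycine, 2 were higher and 2 lower, 13.3% each, which is below the shares of all genes (16.1% and 15.1%). The first of the lower genes, Abat, which degrades GABA, was 40.0, 36.3 and 36.2 FPKM in the controls and 21.3, 17.5 and 18.1 FPKM with Nfia (log2 difference -0.95, adjusted p = 0.000562). The other, Gad2, which makes GABA, fell from 21.8 ± 1.94 to 12.7 ± 0.716 FPKM. Gad1, which also makes GABA, was 33.7 ± 1.17 and 32.5 ± 3.40 FPKM (adjusted p = 0.626), and Aldh5a1, which acts after Abat, 8.53 ± 0.335 and 8.17 ± 0.336 FPKM (adjusted p = 0.482), and neither passed. Of 3 vesicular transporter genes tested, 2 were lower (66.7%, against 15.1% of all genes). Slc32a1, which loads GABA and glycine into vesicles, fell from 14.4 ± 0.869 to 9.48 ± 0.535 FPKM. Slc17a6, which loads glutamate, fell from 2.10 ± 0.156 to 1.24 ± 0.268 FPKM. The third, Slc17a7, did not pass (log2 difference -0.25, adjusted p = 0.414). Leaving out control 1, control 3 or Nfia 2 ended the call of Slc17a6 (adjusted p = 0.0509, 0.0708 and 0.0686). Gad2 and Slc32a1 are themselves in the list of GABA neuron markers. The higher enzymes, Got1 (0.21) and Glud1 (0.14), which interconvert glutamate and its keto acid, lost their calls when control 1, control 3 or Nfia 2 was left out (adjusted p = 0.054 to 0.0716), and Got1 also when Nfia 1 was (adjusted p = 0.0565).

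Of 10 mitochondrial carrier genes tested, 4 were higher and 2 lower (40% and 20%, against 16.1% and 15.1% of all genes). Sfxn1, the serine carrier, was 50.5 ± 1.12 FPKM in the controls and 63.8 ± 0.947 FPKM with Nfia (log2 difference 0.33, adjusted p = 0.00146), and Slc25a29 (0.42), which carries basic amino acids, Sfxn3 (0.32) and the ornithine carrier gene Slc25a15 (0.24) were higher too. The aspartate and glutamate carrier gene Slc25a12 (-0.21) was lower, a call that ended without Nfia 2 (adjusted p = 0.0545). Slc25a44, which carries branched-chain amino acids, was also lower (-0.21) but kept its call only without control 1 when 1 library was left out (adjusted p otherwise 0.0636 to 0.0993). Of 8 branched-chain amino acid enzymes, Dbt (0.18) and Bckdhb (0.30) were higher and Bckdha (-0.21) lower (25% and 12.5%, against 16.1% and 15.1%). All 3 encode subunits of 1 dehydrogenase complex. None of these calls held without Nfia 1 or Nfia 2 (adjusted p = 0.0784 to 0.131). Of 25 mTORC1 amino acid sensing genes tested, 3 were lower, which is 12% against 15.1% of all genes, and the other 22 did not pass. The share is no higher than that of all genes. The 3 were the Rag GTPase genes Rragd (log2 difference -0.42, adjusted p = 0.0018), Rragb (-0.28) and Rraga (-0.20). Leaving out control 1 or 2 or Nfia 2 or 3 ended the call of Rragb (adjusted p = 0.0535 to 0.0753) and leaving out any 1 library that of Rraga (adjusted p = 0.0523 to 0.128).

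**Figure D4:**
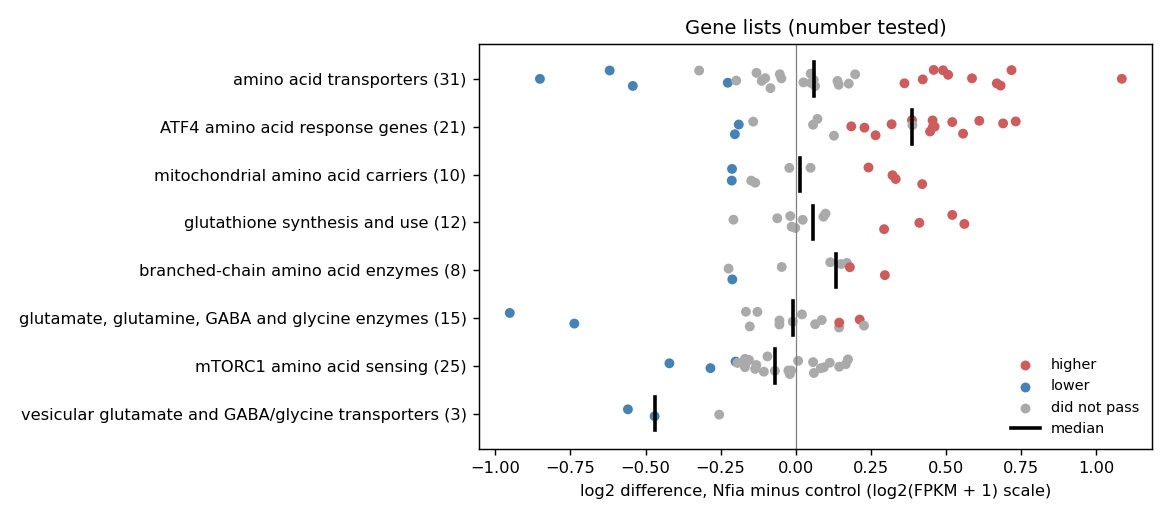
Log2 differences (Nfia minus control) of the tested genes of each list, 1 point per gene coloured by call, with the list's median as a bar. The ATF4 response genes have a median of 0.39, and the other lists have medians between -0.47 and 0.13.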

How the data were processed

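The 6 RNA-seq libraries were deposited as 1 FPKM value per gene symbol, with no header, and the values and the software listed gave the unit. Per the submitters' processing notes, Cufflinks, Cuffdiff, TopHat, SAMtools, Bowtie version 1, MACS version 1.4 and the build mm10 were used, in roles the notes do not state. Which annotation and filters were applied, whether strand was used and how reads shared by paralogs were treated is not given in the sources used here. 1 Flag and 1 IgG ChIP sample were not used here.

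FPKM were taken without further scaling as log2(FPKM + 1). Genes whose mean reached 1 FPKM were fitted in R version 4.3.3 by limma, version 3.58.1 (variance trend, two-sided, no covariates), and p-values were adjusted by the Benjamini-Hochberg method over 12537 genes. Because FPKM values are relative within a library, an increase of abundant genes lowers the others. Tested members may be named; of other lists, up to 4 genes of smallest adjusted p and every gene behind a count of 5 or fewer. Members and lists were chosen with earlier results of these data known. For the same reason no p is adjusted over a list alone. The ATF4 list and the motifs hold textbook targets and elements. Fold values are ratios of mean FPKM.

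On simulated data with the spread of these libraries (12537 genes, 200 changed), 13.8% of genes set to differ by 0.25 (log2), 68.2% of those set to differ by 0.5 and 94.8% of those set to differ by 1 were recovered, and 3.50% of calls were false. In the data 3918 genes (31.3%) were called, far more than the 200 changed in the simulation. The p-value cutoff depends on the number of calls, so these rates do not carry over to the data. Promoters and gene positions came from RefSeq tables of GRCm38.p6, where all 59 members matched by symbol for positions. Castor1 and Castor2 of the mTORC1 list matched no symbol in the files. Values of 1 tested member are not reported here; it stays in the counts and sums.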

Additional observations from a re-analysis of the deposited data

How the results depend on the processing

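The transporter counts were recomputed under 3 other scalings (quantile, upper-quartile and median-of-ratios), 2 other filters (none, and a mean of 5 FPKM or more), a pseudocount of 0.1, no variance trend, a block for the replicate number, and with each library left out. Over these 14 settings 7 to 11 members were higher and 3 to 5 lower, and 12 of the 14 called genes kept their call wherever they were tested. The exceptions were Slc7a11 and Slc43a1. Without 1 library, 1290 to 1625 of all genes were higher and 1251 to 1572 lower, the lowest of both without Nfia 2.

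Over all genes tested, same-numbered libraries did not vary together (correlations of deviations 0.03, -0.01 and 0.05). A measure over all genes cannot show whether smaller sets of genes pair by number. Of the fibroblast markers listed, Col1a1 was 0.889, 2.95 and 3.23 FPKM in control 1, 2 and 3 and 1.09, 4.98 and 5.16 FPKM in Nfia 1, 2 and 3. Lum was likewise lowest in library 1 of both groups (0.671 and 0.357 FPKM). Whether same-numbered libraries share a preparation was not tested. With the replicate number as a block, 10 members were higher and 4 lower, and 2130 of all genes were higher and 1916 lower.

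Differences near 0 changed sign in 4 genes that passed in no setting, and the cause was not tested. With 1 library left out, the log2 difference ran from -0.16 to 0.0017 for Slc1a1 and from -0.19 to 0.012 for Slc36a1 (highest without control 3 for both), from -0.13 to 0.020 for Slc6a6 (highest without Nfia 1) and from -0.0089 to 0.057 for Slc38a1 (lowest without Nfia 3). Slc38a1 was -0.0014 with quantile normalization.

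With the filter at 5 FPKM, where fewer genes are tested, SLC7 had 2 genes higher in place of 4, SLC6 1 lower in place of 2 and SLC43 0 higher in place of 1. Under quantile normalization the lower mTORC1 genes numbered 6 in place of 3 and the lower glutamate and GABA enzymes 4 in place of 2, and with the block the lower mTORC1 genes numbered 5. The higher branched-chain enzymes numbered 0 with no filter and under quantile normalization, 1 with no variance trend and 4 with the block, in place of 2. Of the 14 higher ATF4 response genes, 10 kept their call in every setting, and 10 to 12 were higher without 1 library. With no filter, 23 of the 28 members below it were tested and 1 passed, Slc6a2 (log2 difference 0.15, adjusted p = 0.0264), at levels far under 1 FPKM.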

Other observations

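Slc6a20a and Slc6a20b, whose symbols end in a letter, encode carriers of proline and related imino acids and fall outside the name rule. Slc6a20a was 0.700, 1.06 and 1.17 FPKM in control 1, 2 and 3 and 0.909, 0.888 and 0.201 FPKM in Nfia 1, 2 and 3, with overlapping ranges. Slc6a20b was 0.0719 to 0.212 FPKM in the controls and 0.0473 to 0.163 FPKM with Nfia. Both were below the filter.

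Of the 23 transporter genes below the filter that were above 0 in a library, 5 had groups that did not overlap (Slc1a7, Slc3a1, Slc6a2, Slc6a13 and Slc36a2). That is 21.7%, against 15.0% of all 6647 such genes, and nothing is read from it. Slc6a2, the noradrenaline transporter gene, was listed at 0, 0.0209 and 0.0207 FPKM in the controls and at 0.0797, 0.159 and 0.133 FPKM with Nfia. Slc36a2, a carrier of glycine and proline, was 0.0664, 0.0550 and 0.109 FPKM in the controls and 0.0150, 0.0364 and 0.0218 FPKM with Nfia. These genes were picked out after their values were seen.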
